A study of Homo sapiens with 12 samples.

Results

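The 9 genes described here are CRLF3, KHNYN, ZMYND11, H3-3B (H3F3B on the array), WDR26, NIPAL4, ACAD11, C4orf46 and C1QTNF6. They were chosen by measured values of these same arrays, a lower signal after transfection with premir miR-10b than after premir control, so that difference is given as a description and carries no test. The array holds 16 probes annotated to the 9 genes, of 47231 probes in all. Of these, 14 were detected well enough to be analysed (detection p under 0.05 on at least 3 arrays), among 21195 such probes.

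The arrays measured RNA of PANC-1 cells, an established line from a human pancreatic ductal adenocarcinoma, 20 h after transfection with 1 of 4 oligonucleotides. A premir is a synthetic precursor that adds a microRNA to the cell, and an antimir is an antisense oligonucleotide that binds and blocks one. The groups were premir control, premir miR-10b, antimir control and antimir-10b, with 3 arrays in each of the 4 groups, described by the submitters as biological replicates. All 4 groups are of the same line and time, none was left untransfected, and the 6 antimir control and antimir-10b arrays are called the antimir arm below.

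A microRNA guides a silencing complex to messenger RNAs that pair with its seed, near its 5′ end, and the bound message is translated less and decays sooner. MIR10B lies in the HOXD gene cluster and its microRNA is known for a part in invasion and metastasis of carcinoma cells. The precursor below is shown because it is the natural molecule that a miR-10b premir stands in for. RefSeq places its hairpin at chr2:176150303-176150412 on the plus strand of GRCh38.p14, and the capitals mark hsa-miR-10b-3p, the 3′ arm of the hairpin. That arm is given on the second line with its seed, bases 2 to 8, in capitals. The 5′ arm, hsa-miR-10b-5p, is the usual main product of the hairpin and has another seed, and the labels do not say which arm the premir supplies.

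MIR10B hairpin: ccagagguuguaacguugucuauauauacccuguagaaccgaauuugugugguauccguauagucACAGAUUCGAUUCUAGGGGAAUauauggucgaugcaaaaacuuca
hsa-miR-10b-3p: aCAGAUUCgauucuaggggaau

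One array stood apart from the others. Premir miR-10b replicate 2 detected 29.5% of the probes against 39.2 to 41.3% on the other 11 arrays, and its median correlation with them was 0.873, where the lowest among the 11 was 0.987. After normalization it read above all 3 premir control arrays for 45.6% of the 21195 probes. Differences that rest on it are therefore given with all 12 arrays and with the 11 others, while group means and SDs of the 9 genes include it. HTATIP2, a known target of miR-10b, checked the premir label. Its mean log2 signal was 10.99 with premir control and 9.82 with premir miR-10b, or 9.93 without replicate 2. Between antimir-10b and antimir control HTATIP2 differed by -0.10, so it gave no such check of the antimir. The probe of the MIR10B gene was detected on 1 of 12 arrays, so the arrays did not read the added microRNA itself. Of 6 epithelial and ductal marker genes 4 were detected on all 12 arrays. Of the 4 fibroblast markers, COL1A1 was detected on all 12, while COL1A2 was detected on at most 2, DCN on at most 3 and LUM on 0. Of the 4 leukocyte markers, CD14 and CD68 were detected on all 12 and PTPRC and CD3E on 0.

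Signal below is the normalized log2 bead signal, in which 1 unit is a doubling, and values follow the order of the replicate numbers. Levels are set against other levels of the same probe only. Near the background the normalization compresses differences, so those of dim probes are understated, except on premir miR-10b replicate 2. That array had the lowest 95th percentile of raw signal, 733.1 against 1188.2 or more, and normalization gave all arrays like distributions. Raw signals could read higher there: 89.9 became 7.07 (ILMN_1753110), while 94.1 became 5.60 on premir control replicate 3. This was not confined to dim signals: 320.1 became 9.33 (ILMN_1754234), while 309.9 became 8.15 on premir miR-10b replicate 3. Raw values do not compare directly between arrays either. With RNA from whole cultures, fewer cells of a kind and less RNA per cell cannot be told apart.

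KHNYN is a putative endoribonuclease and a cofactor of the antiviral protein ZAP, which binds foreign RNA. Its probe (ILMN_1654392) read 7.73, 7.93 and 8.03 on the premir control arrays and 6.64, 5.42 and 6.44 on the premir miR-10b arrays. It read 7.52, 7.67 and 7.58 with antimir control and 7.47, 7.59 and 7.39 with antimir-10b. All 3 premir miR-10b arrays lay below the other 9. The lowest was replicate 2, where the probe was not detected (detection p of 0.110). The group means were 7.90 ± 0.15 with premir control and 6.17 ± 0.66 with premir miR-10b (SD, n = 3 each), a difference of -1.73 ± 0.27 (SE of the fit) with 12 arrays and -1.36 ± 0.13 with 11. Against the mean of the antimir arm, premir miR-10b stood at -1.37 with 12 arrays and -0.996 with 11. The premir control arrays lay above all 6 of the antimir arm as well.

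ZMYND11 (BS69) reads histone H3.3 that carries a methyl mark typical of transcribed gene bodies, and H3-3B is one of the genes encoding H3.3, the replication-independent form of histone H3. The brightest ZMYND11 probe (ILMN_1754234) read 9.94, 9.87 and 9.71 with premir control and 8.74, 9.33 and 8.15 with premir miR-10b. It read 9.43, 9.66 and 9.64 with antimir control and 9.55, 9.57 and 9.68 with antimir-10b. The premir miR-10b arrays did not overlap any of the other groups, although replicate 2 came close to the lowest antimir array in normalized signal. Before normalization replicate 2 read 320.1, below the antimir arm (668.2 to 940.4). The difference from premir control was -1.10 ± 0.24 with 12 arrays and -1.39 ± 0.16 with 11, and that from the antimir arm was -0.85 and -1.14.

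The dimmer ZMYND11 probe (ILMN_1753110), detected on 8 of 12 arrays, did not share that pattern. It read 5.60, 5.24 and 5.60 with premir control and 5.53, 7.07 and 5.29 with premir miR-10b. The groups thus overlapped, and replicate 2 was the highest of the 12 arrays. Before normalization replicate 2 read 89.9, within the premir control range (75.5 to 100). Its difference was 0.48 ± 0.39 with 12 arrays and -0.07 ± 0.18 with 11. The remaining ZMYND11 probe (ILMN_1734783) was detected on 0 arrays and gives no difference.

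H3-3B has 1 probe (ILMN_1695706). It read 9.58, 9.72 and 9.18 with premir control and 8.41, 9.33 and 7.62 with premir miR-10b. It read 9.08, 9.18 and 9.01 with antimir control and 9.24, 9.08 and 9.05 with antimir-10b. Replicates 1 and 3 of premir miR-10b lay below all other arrays, but replicate 2 lay among the premir control arrays in normalized signal. Before normalization replicate 2 read 317.3, below premir control (666.2 to 995.9) and the antimir arm (535.2 to 747.8). The difference was -1.04 ± 0.34 with 12 arrays and -1.48 ± 0.21 with 11, and -0.65 and -1.09 against the antimir arm. H3-3B has a paralogue, H3-3A, that encodes the same protein, and processed pseudogene copies. Whether the probe separates H3-3B from those copies is uncertain, because probe sequences were not used here.

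WDR26 is a subunit of the CTLH ubiquitin ligase, a ring-shaped complex that marks proteins for degradation. Its probe (ILMN_1719343) read 8.58, 8.50 and 8.40 with premir control and 7.93, 5.71 and 7.26 with premir miR-10b. It read 8.03, 8.07 and 8.29 with antimir control and 8.30, 8.07 and 8.42 with antimir-10b. All 3 premir miR-10b arrays lay below the other 9, narrowly for replicate 1 and far below for replicate 2. WDR26 was not detected on replicate 2 (detection p of 0.0636). The difference of -1.53 ± 0.43 with 12 arrays became -0.90 ± 0.18 with 11, and that from the antimir arm went from -1.23 to -0.60. Leaving out replicate 2 thus shortened the distance of WDR26 from premir control and from the antimir arm.

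CRLF3 is an orphan relative of the cytokine receptors. The brighter of its probes (ILMN_2155228) read 8.89, 8.51 and 8.61 with premir control and 7.18, 5.50 and 5.87 with premir miR-10b. It read 8.34, 8.17 and 8.24 with antimir control and 8.70, 8.25 and 8.62 with antimir-10b. Every premir miR-10b array lay well below every other array. Replicate 2, the lowest, was not detected (detection p of 0.0896). The group means were 8.67 ± 0.20 and 6.18 ± 0.88 (SD, n = 3 each). The difference of -2.49 ± 0.35, 5.61-fold lower, was the most negative among the 14 probes. With 11 arrays it was -2.15 ± 0.28, 4.43-fold lower, and against the antimir arm it was -2.20 with 12 arrays and -1.86 with 11.

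The other CRLF3 probe (ILMN_1660579) was detected on all 12 arrays. It read 7.60, 7.36 and 7.38 with premir control and 6.29, 6.45 and 6.31 with premir miR-10b, and between 7.23 and 7.73 in the antimir arm. Here replicate 2 lay close to replicates 1 and 3, and no premir miR-10b array overlapped another group. The difference was -1.10 ± 0.16 with 12 arrays and -1.14 ± 0.15 with 11, and -1.18 and -1.23 against the antimir arm. Both CRLF3 probes gave the same direction with different sizes.

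NIPAL4 (ichthyin) is a membrane protein of a magnesium transporter family and is mutated in congenital ichthyosis, a skin barrier disease. Its detected probe (ILMN_1713638) read 6.82, 6.79 and 6.83 with premir control and 5.77, 5.64 and 5.68 with premir miR-10b. It read 6.96, 6.82 and 6.94 with antimir control and 6.51, 6.52 and 6.63 with antimir-10b. These were tight groups: the SD was 0.023 with premir control and 0.069 with premir miR-10b (n = 3 each), and replicate 2 lay close to the other 2 arrays of its group. NIPAL4 was not detected on it (detection p of 0.0688). The difference was -1.12 ± 0.11 with 12 arrays, 2.17-fold lower, and -1.09 ± 0.12 with 11. Against the antimir arm it was -1.03 with 12 arrays. The other NIPAL4 probe (ILMN_1691534) was detected on 0 arrays.

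C1QTNF6 (CTRP6) is a secreted protein of the C1q/TNF family. Its brightest probe (ILMN_1729288) read 6.96, 6.92 and 6.40 with premir control and 5.45, 7.89 and 5.54 with premir miR-10b. It read 6.43, 5.87 and 5.76 with antimir control and 6.39, 6.38 and 6.13 with antimir-10b. Replicate 2 was the highest of all 12 arrays, and replicates 1 and 3 were the lowest. The difference was -0.47 ± 0.53 with 12 arrays and -1.27 ± 0.21 with 11, and against the antimir arm it turned from 0.13 to -0.67. The lower normalized signal of C1QTNF6 was thus that of 2 arrays and not of the group of 3. Before normalization replicate 2 read 120.7, below the premir control arrays (203.9, 165.9 and 137.1). With signals centred on each array's median instead, the 12-array difference was -0.81.

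The other C1QTNF6 probes were near the detection limit. ILMN_1689102 was detected on 5 of 12 arrays and ILMN_2361181 on 3 of 12, both on 0 of the 3 premir miR-10b arrays. Their signals ran from 5.16 to 5.80 and from 5.03 to 5.77, and their differences were 0.05 and -0.33 with 12 arrays and -0.13 and -0.37 with 11. The premir miR-10b arrays overlapped premir control for the first and lay below it for the second, at undetected signals. No bound on a fold above 1 could be given for either.

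ACAD11 is an acyl-CoA dehydrogenase that helps to break down 4-hydroxy fatty acids. Its probe (ILMN_1761058) read 8.31, 8.14 and 8.17 with premir control and 7.54, 8.75 and 7.45 with premir miR-10b. It read 8.18, 7.97 and 8.01 with antimir control and 8.22, 8.27 and 8.41 with antimir-10b. As for C1QTNF6, replicate 2 was the highest of the 12 arrays in normalized signal and replicates 1 and 3 the lowest. Before normalization replicate 2 read 206.3, the lowest of the 12 arrays and below premir control (322.5 to 451.2). In the main normalization the difference was -0.29 ± 0.29 with 12 arrays and -0.71 ± 0.13 with 11, and -0.26 and -0.68 against the antimir arm. With signals centred on each array's median instead, the 12-array difference from premir control was more negative.

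C4orf46 has 2 analysed probes. The brighter (ILMN_3249240) read 7.97, 7.69 and 7.77 with premir control and 7.29, 5.75 and 6.92 with premir miR-10b. It read 7.63, 7.75 and 7.74 with antimir control and 7.82, 7.78 and 7.85 with antimir-10b. All 3 premir miR-10b arrays lay below the other 9. Replicate 2 was the lowest and was not detected (detection p of 0.0610). The difference was -1.16 ± 0.31 with 12 arrays and -0.70 ± 0.14 with 11, and -1.11 and -0.66 against the antimir arm.

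The dimmer C4orf46 probe (ILMN_1792712) placed replicate 2 on the opposite side in normalized signal. It read 7.60, 7.32 and 7.07 with premir control and 7.14, 7.80 and 6.39 with premir miR-10b. Replicate 2 was thus the highest of the 12 arrays, and replicate 1 lay within the premir control range. Before normalization replicate 2 read 116.1, the lowest of the 12 arrays. The probe's normalized difference was -0.22 ± 0.30 with 12 arrays and -0.56 ± 0.21 with 11, and -0.17 and -0.51 against the antimir arm. With 11 arrays both C4orf46 probes gave differences of like size.

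**Figure D1:**
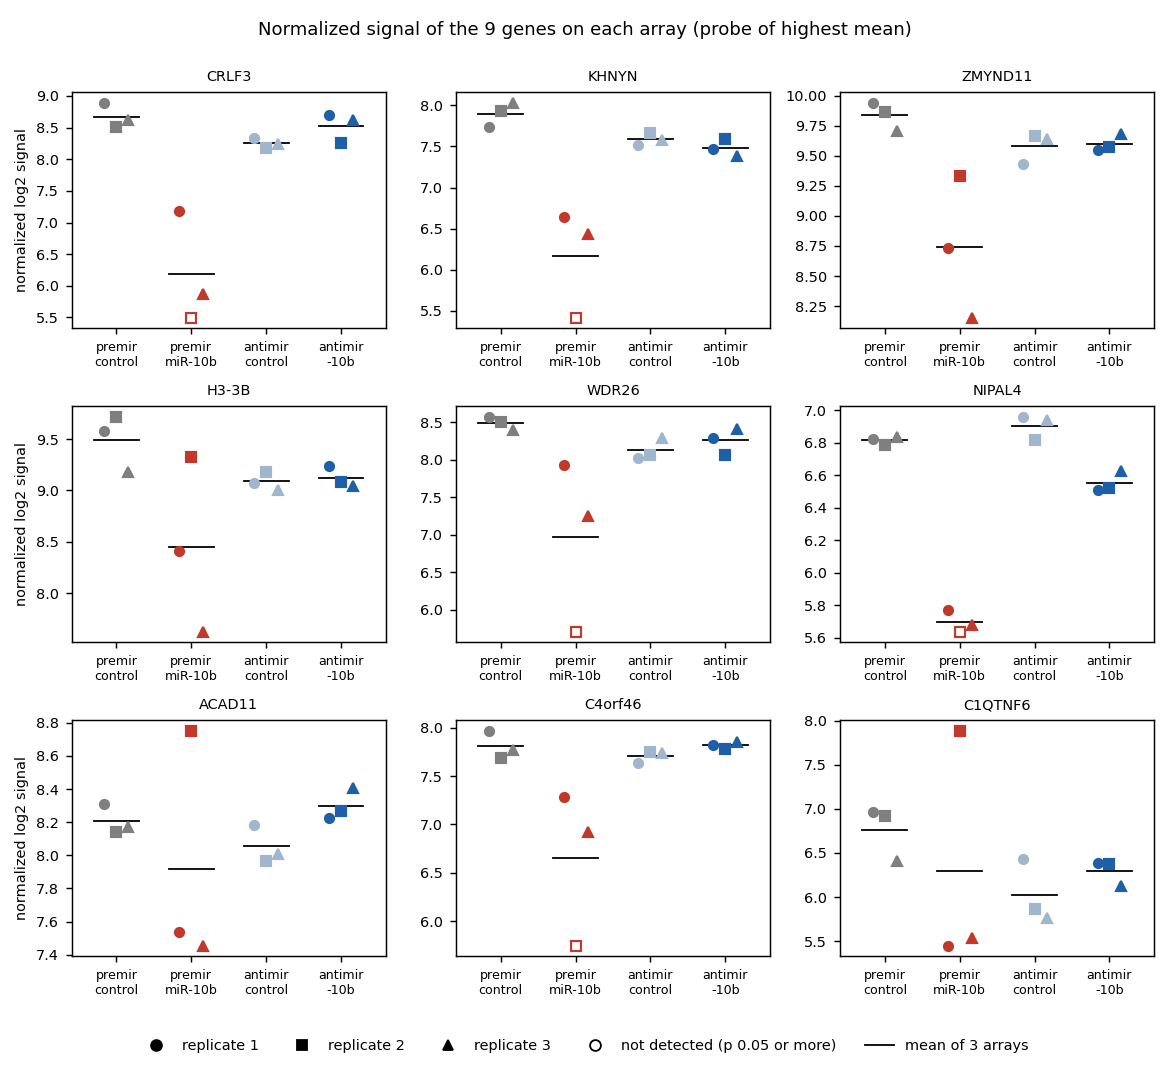
Normalized log2 signal (vertical axis) of the brightest probe of each of the 9 genes on each of the 12 arrays, by group (horizontal axis), with horizontal lines for the means of 3 arrays, marker shapes for the replicate numbers and open markers for arrays on which the probe was not detected. Premir miR-10b replicates 1 and 3 lie below the premir control arrays for all 9 genes, while replicate 2 lies above them for ACAD11 (8.75) and C1QTNF6 (7.89).

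**Figure D2:**
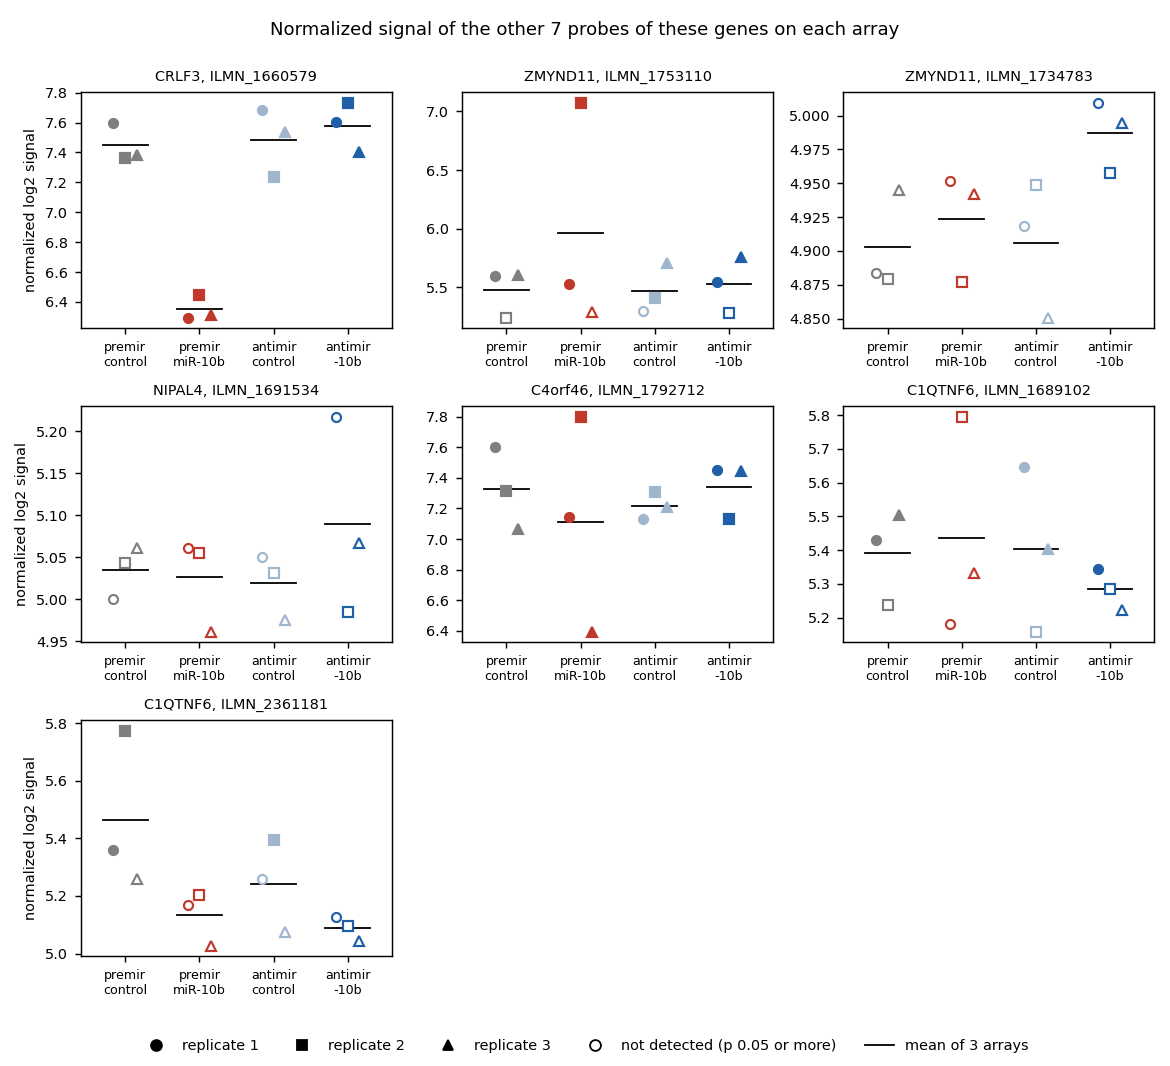
Normalized log2 signal of the remaining probes of the same genes on the 12 arrays, by group, with group means. The second CRLF3 probe repeats the lower premir miR-10b signal (6.29 to 6.45), while the second ZMYND11 probe and the first C1QTNF6 probe overlap between groups. Open markers are arrays without detection.

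Counted over the 14 probes, all 3 premir miR-10b arrays lay below all 3 premir control arrays for 8, and replicates 1 and 3 did so for 11. The background was 5.73% of all 21195 probes with 3 arrays and 9.84% with 2. Below the whole antimir arm lay 7 probes with 3 arrays (background 3.21%) and 10 with 2 (background 5.94%). Replicate 2 read above all premir control arrays for 5 of the 14 probes, where 45.6% of all probes did. At a limma adjusted p under 0.05, 4 of the 14 probes, of CRLF3, KHNYN and NIPAL4, were lower with 12 arrays (background 0.0755% lower) and 10 probes of all 9 genes with 11 (background 0.425% lower). Since this comparison chose the genes and shares its premir miR-10b arrays with the comparison to the antimir arm, nothing is read from these counts. The count of 4 was also unsteady: it was 0 without any 1 of the premir control arrays, 1 without premir miR-10b replicate 3 or antimir control replicate 2 or 3 or any 1 of the antimir-10b arrays, and 2 without antimir control replicate 1. It was also 0 with the replicate block and with 5 other settings of the processing.

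The comparison that did not choose the genes is antimir-10b against antimir control, which asks whether the antimir moved the same genes. The known target HTATIP2 differed by -0.10 in it, and whether the antimir blocked the cell's own miR-10b was not tested. At an adjusted p under 0.05 (limma, Benjamini-Hochberg over 21195 probes), 0 of the 14 probes changed with 12 or with 11 arrays, and 0% of all probes did. At an unadjusted p under 0.05 there was 1 of the 14 with 12 arrays (background 0.264%) and 2 with 11 (background 2.26%). The differences ran from -0.35 to 0.28, with 10 of 14 above 0, and the median over all probes was 0.0030.

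NIPAL4 had the smallest unadjusted p of the 14 probes. Its mean was 6.91 ± 0.079 with antimir control and 6.55 ± 0.064 with antimir-10b (SD, n = 3 each), and all 3 antimir-10b arrays lay below all antimir control arrays, as for 4.09% of all probes. The difference was -0.35 (95% interval -0.61 to -0.10 with 12 arrays and -0.58 to -0.13 with 11). In limma the unadjusted p of 0.0111 (12 arrays) and 0.00455 (11 arrays) became an adjusted p of 1.00 and 0.999, which did not pass. NIPAL4 therefore read lower with the antimir as well as with the premir, each against its own control.

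ACAD11 was the other gene with an unadjusted p under 0.05, and with 11 arrays only. All 3 antimir-10b arrays lay above all antimir control arrays, as for 4.64% of all probes, and the difference was 0.25 (95% interval -0.39 to 0.88 with 12 arrays and 0.0044 to 0.49 with 11). In limma the unadjusted p was 0.408 (12 arrays) and 0.0465 (11 arrays), and neither passed after adjustment, at 1.00 and 0.999. The brighter C4orf46 probe also separated the groups in this direction, with a difference of 0.11 (95% interval -0.58 to 0.80 with 12 arrays and -0.16 to 0.38 with 11). For the dimmer C4orf46 probe the groups overlapped, with a difference of 0.13 (-0.53 to 0.79 and -0.27 to 0.53).

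The other genes overlapped between antimir control and antimir-10b. The brighter CRLF3 probe differed by 0.27 (95% interval -0.50 to 1.05 with 12 arrays and -0.26 to 0.81 with 11), and the dimmer by 0.09 (-0.25 to 0.44 and -0.20 to 0.39). KHNYN differed by -0.11 (-0.69 to 0.48 and -0.36 to 0.15). WDR26 differed by 0.13 (-0.81 to 1.08 and -0.22 to 0.49). For each of these 3 genes the intervals held 0 and allowed a change in either direction.

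The chromatin genes gave the smallest antimir differences among the brightest probes. ZMYND11 differed by 0.02 (95% interval -0.52 to 0.57 with 12 arrays and -0.29 to 0.34 with 11) and H3-3B by 0.03 (-0.72 to 0.79 and -0.37 to 0.43). The dimmer ZMYND11 probe differed by 0.06 (-0.80 to 0.91 and -0.29 to 0.40). The brightest C1QTNF6 probe differed by 0.28 (-0.90 to 1.46 and -0.12 to 0.68). Its other probes, near the detection limit, went the other way. ILMN_1689102 differed by -0.12 (-0.53 to 0.29 and -0.41 to 0.17) and ILMN_2361181 by -0.15 (-0.51 to 0.20 and -0.46 to 0.15). The wide 12-array intervals include the spread of premir miR-10b replicate 2, which entered the shared estimate of the error.

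**Figure D3:**
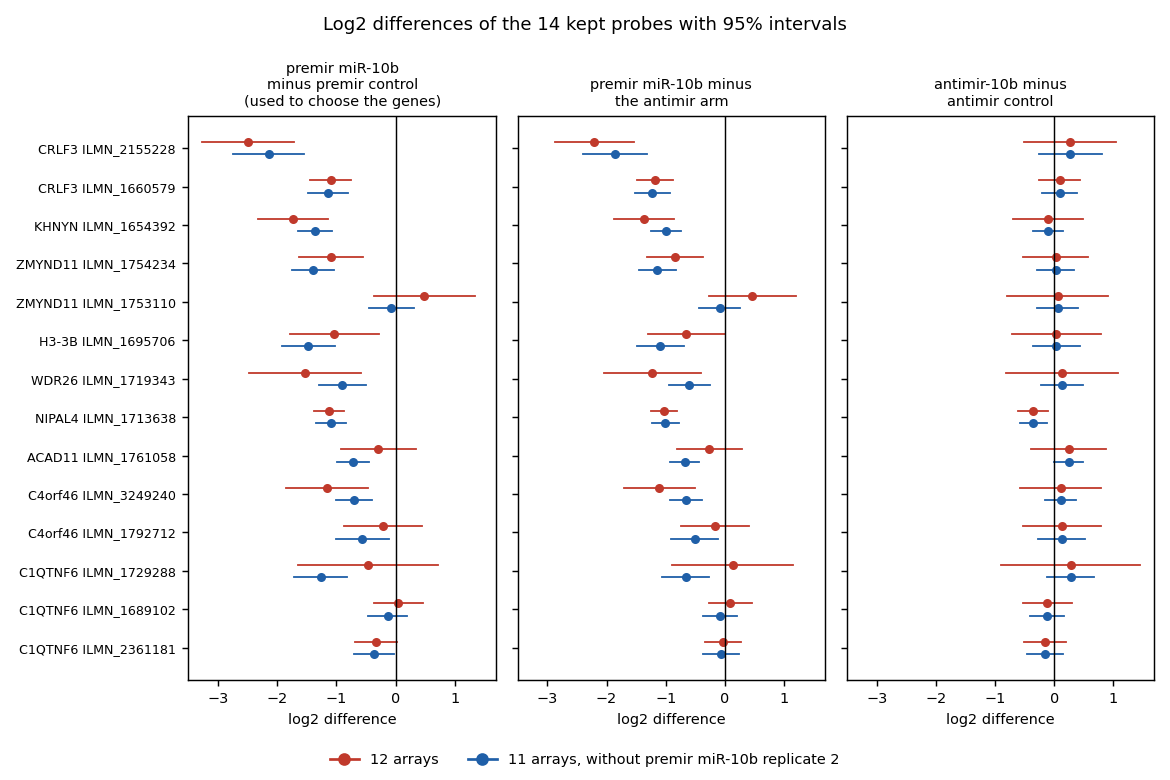
Differences in log2 signal (horizontal axis) for the analysed probes for premir miR-10b against its control (left), premir miR-10b against the antimir arm (middle) and antimir-10b against its own control (right), with 95% intervals, for 12 (red) and 11 (blue) arrays. The antimir values lie between -0.35 and 0.28 around 0, while the premir values of the brightest probes extend down to -2.49. The left comparison chose the genes and the middle shares its premir miR-10b arrays, so this contrast in size is a description.

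The control groups were also set side by side for these genes. Antimir control read below premir control for 11 of the 14 probes, by -0.74 for the brightest C1QTNF6 probe, -0.42 for the brighter CRLF3 probe, -0.40 for H3-3B, -0.37 for WDR26, -0.31 for KHNYN and -0.26 for ZMYND11. NIPAL4 differed by 0.09. None of the 14 probes passed an adjusted p under 0.05 (limma, 0 of 14 with 12 arrays and with 11, where 0.0189% and 0.189% of all probes passed in either direction, and 0% and 0.0283% as lower), and 0 with 12 arrays and 4 with 11 had an unadjusted p under 0.05 (background 1.88% and 9.92%). The premir control arrays lay above all 6 of the antimir arm for KHNYN and ZMYND11, 2 of the 14 probes (background 3.43%). As the premir control arrays also entered the choice of the genes, these values are a description.

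Related genes of the same complexes and families were read from 8 lists with 81 genes, of which 63 genes and 86 probes were analysed. Between premir miR-10b and its control, 0 of the 86 probes were called higher or lower with 12 or with 11 arrays (limma; background 0.109% and 0.637% in either direction), and 6 had an unadjusted p under 0.05 with 11 arrays (background 7.71%). In antimir-10b against antimir control 0 were called, and 0 had an unadjusted p under 0.05 with 11 arrays. The median premir difference over the lists was -0.12 with 12 arrays and 0.03 with 11, beside 0.02 and 0.0024 over all probes.

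Beside KHNYN, the list of ZAP and related nucleases held 6 analysed genes, and ZAP itself (ZC3HAV1) had 3 analysed probes. They differed by 0.43, 0.41 and 0.39 with 12 arrays and by 0.16, 0.93 and 0.87 with 11, and the last 2 had the smallest adjusted p of the 3 with 11 arrays, 0.247 and 0.173 in limma. N4BP1, a nuclease of the same family as KHNYN, had 2 probes that differed by 0.54 and 0.03 with 12 arrays and by -0.03 and 0.13 with 11. None of these values passed the test. Beside WDR26, all 10 CTLH genes were analysed, and GID8 differed by 0.72 with 12 arrays and 0.33 with 11. The 3 analysed ARMC8 probes differed by -0.87, -0.40 and 0.07 with 12 arrays and by -0.07, 0.04 and 0.20 with 11. No value of GID8 or ARMC8 passed the test.

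Beside H3-3B, the paralogue H3-3A had 3 analysed probes, which differed by -0.20, -0.64 and -0.43 with 12 arrays and by -0.17, -0.06 and -0.18 with 11. The H3.3 chaperone ASF1A differed by -0.92 with 12 arrays and -0.30 with 11. Among the writers, readers and erasers of the histone H3 methyl mark listed beside ZMYND11, 13 genes were analysed. The 3 probes of the DNA methyltransferase DNMT3B differed by -0.51, -1.15 and 0.48 with 12 arrays and by -0.32, -0.33 and -0.02 with 11. The 2 probes of the reader PSIP1, detected on 5 and 12 arrays, differed by 0.39 and 0.08 with 12 arrays and by 0.21 and -0.39 with 11. Probes of DNMT3B disagreed in direction with 12 arrays and those of PSIP1 with 11, and none passed the test.

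Beside ACAD11, the 2 probes of ACADM, the medium-chain acyl-CoA dehydrogenase, differed by -0.94 and 0.33 with 12 arrays, in opposite directions, and by -0.46 and -0.13 with 11. ACAD9, an assembly factor of respiratory complex I, differed by 0.50 and 0.14. Beside NIPAL4, its family members NIPAL3 and NIPA1 differed by -0.31 and 0.33 with 12 arrays and by -0.20 and -0.03 with 11. Beside CRLF3, the cytokine receptors IL4R and OSMR differed by 0.32 and -0.58 with 12 arrays and by 0.17 and -0.17 with 11. None of these values passed the test. Of the C1q/TNF family listed beside C1QTNF6, 9 genes had a probe and 0 passed the detection filter, so no family member could be set beside it.

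**Figure D4:**
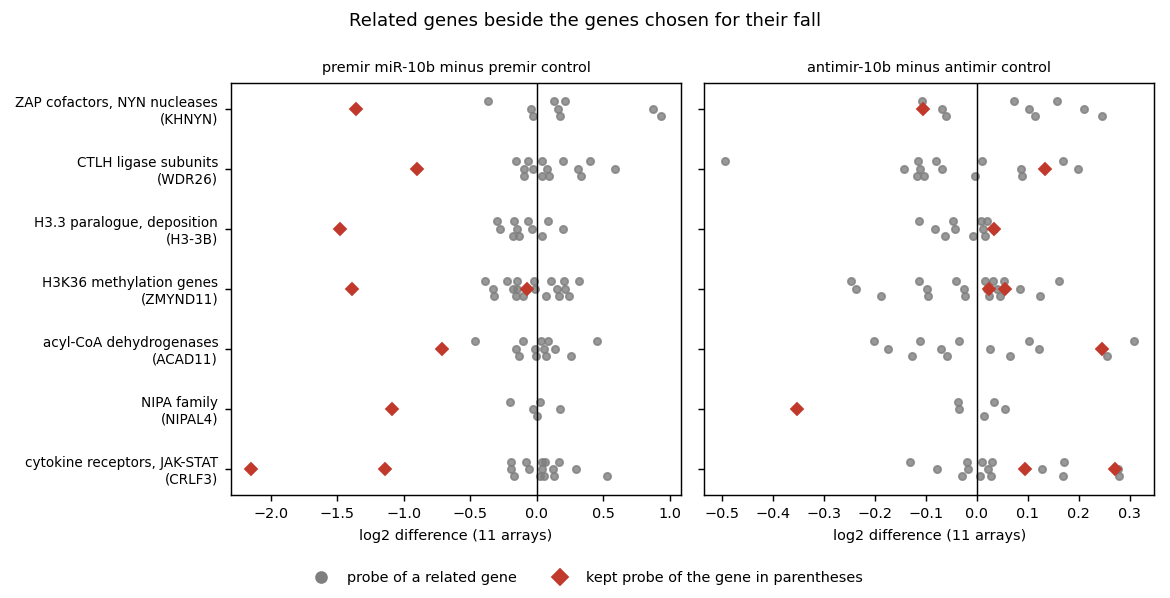
Differences in log2 signal over 11 arrays for the analysed probes of each related-gene list (grey circles) and for those of the gene it was listed beside (red diamonds), premir miR-10b minus its control on the left and antimir-10b minus its control on the right, each panel with its own scale. On the left the listed genes lie between -0.46 and 0.93, on the right between -0.49 and 0.31, and 0 of the 86 probes were called.

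For each of the 9, the gene with the nearest pattern over the 11 arrays was named, as a description only. Nearness was the root mean square difference of the centred log2 signals. The 9 were chosen for a fall after premir miR-10b, and their nearest genes also differed below 0, from -0.66 (CYTH1) to -1.82 (CMPK1). Nearness to a gene that fell is therefore not a separate result. The nearest to H3-3B was ZMYND11, itself one of the 9, at 0.143, and it was also the nearest with 12 arrays. The nearest to both KHNYN and ZMYND11 was SKA1, at 0.140 and 0.116, and SKA1 itself differed by -1.28 between premir miR-10b and premir control. NIPAL4 lay nearest to HTATIP2, at 0.120. C4orf46 lay nearest to FAM83D, at 0.0800, WDR26 to RAB11FIP2, at 0.100, and ACAD11 to CYTH1, at 0.109. CRLF3 and C1QTNF6 had larger distances: their nearest were CMPK1, at 0.242, and ADGRG2, at 0.241. These distances were not scaled to a probe's own SD over the 11 arrays. That SD was 0.872 for CRLF3, 0.506 for C1QTNF6 and from 0.297 (C4orf46) to 0.569 (H3-3B) for the others. With 12 arrays the nearest gene was the same for H3-3B, WDR26, NIPAL4 and C4orf46, and another for KHNYN, ZMYND11, ACAD11, CRLF3 and C1QTNF6.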

How the data were processed

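Total RNA was extracted with Trizol and labelled with biotin (Illumina TotalPrep), per the labels' protocols. The deposited non-normalized table holds a linear signal intensity and a detection p-value for each of 47231 probes on each of 12 arrays, per the file headers. The deposited scaled signal intensity equals it times 1 constant an array (0.927 to 1.12). The scanner software, genome build and slides were not given in the sources used here.

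Signals were normalized with limma 3.58.1 in R 4.3.3 (neqc: background from the detection p-values, offset 16, quantiles, log2). Probes with detection p under 0.05 on at least 3 arrays were kept and fitted singly (lmFit, eBayes, 4 group means), with Benjamini-Hochberg adjustment over 21195 probes, two-sided. The fit was tested on simulated data in which each probe had the same spread on every array. The simulation did not mimic the deviation of premir miR-10b replicate 2. The 11-array fit kept the 12-array normalization. Symbols came from the platform annotation: 30113 probes have 1 symbol, 8 several and 17110 none. The number of arrays limits the precision.

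The members, lists and tests were chosen with earlier results of these data known. The text names all member probes, HTATIP2, H3-3A, the 2 genes of each list with the smallest premir p over 12 arrays (with all their kept probes), and each member's nearest gene. Alternatives covered background correction, normalization, filter, variance model, array weights, the replicate block and leaving out each array. Same-numbered arrays did not all deviate together, with correlations of 0.204, 0.017 and 0.049 in the premir groups. In the antimir groups they were 0.163, -0.085 and 0.374. The premir values include premir miR-10b replicate 2, which stood apart, so they could miss a pairing. Numbers were not taken to pair the arrays.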

Additional observations from a re-analysis of the deposited data

Results flagged for a closer look

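The brighter CRLF3 probe (ILMN_2155228) differed by -2.49 between premir miR-10b and premir control and by 0.27 between antimir-10b and antimir control. It is listed because every premir miR-10b array lay below the premir control mean, by -1.49 or further, while every antimir-10b array lay above the antimir control mean, the nearest by only 0.0013. The brighter C4orf46 probe (ILMN_3249240) differed by -1.16 and 0.11 in the same comparisons, with every premir miR-10b array at -0.52 or lower and every antimir-10b array at 0.069 or higher. The difference between the effects was not tested for either, and the premir side of both was used to choose the genes.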

How the results depend on the processing

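The count of member probes called lower after premir miR-10b was 4 with all arrays. It was 10 with array weights, in which premir miR-10b replicate 2 had a weight of 0.027, and 2 with no filter on detection. It was 0 with the compared arrays alone, with detection p under 0.01 in all arrays, with median centring, with the replicate block, with the authors' scaled values and with trended and robust variances. Leaving out single arrays gave 0 to 10. The cause was not tested, except that fewer arrays or probes entered some of these fits. For antimir-10b against antimir control, 0 member probes were called in all 23 settings, and 0 related-gene probes were called in either comparison. The replicate block changed no other call. A block for the slide could not be fitted, since no source used here gives the slides.

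Uncalled antimir differences that changed sign were all near 0. The dimmer CRLF3 probe was -0.031 without antimir control replicate 2. H3-3B was -0.0073 without antimir control replicate 3 and -0.024 without antimir-10b replicate 1. KHNYN was 0.0046 with median centring and 0.0085 with the scaled values. The brightest ZMYND11 probe was -0.051 with array weights and without antimir control replicate 1, and -0.018 without antimir-10b replicate 3, and the dimmer was -0.032 and -0.060 in the last 2 settings. C1QTNF6 probe ILMN_1689102 was 0.0025 with array weights and 0.0040 without antimir control replicate 1. Leaving out single arrays gave ranges of -0.031 to 0.19 for that CRLF3 probe, -0.024 to 0.082 for H3-3B, -0.051 to 0.065 and -0.060 to 0.18 for the ZMYND11 probes and -0.24 to 0.0040 for that C1QTNF6 probe. On premir miR-10b replicate 2 the brightest probes of CRLF3, KHNYN, WDR26, NIPAL4 and C4orf46 were not detected, so their differences there are limited by signal, while the other CRLF3 and C4orf46 probes were detected.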
